A study of Schizosaccharomyces pombe with 2 samples.

Results

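The probe-poor interior windows are the 10 kb stretches of the fission yeast genome where a tiling array carried few probes away from centromeres, chromosome ends and the gained region of chromosome III. The 3 chromosomes were divided into 1256 windows by probe position, and a window was kept if it had 5 to 28 probes, lay over 50 kb from both sequence ends and lay outside 4 excluded stretches. Of the 1180 interior windows, 15 met this rule, with 20 to 28 probes each and 369 probes in all. The 1150 interior windows with 32 or more probes served as the comparison windows. The rule itself reads only probe numbers and positions, but 1 of the excluded stretches is the gained region, which is known from the ratios of these arrays.

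Genomic DNA of Schizosaccharomyces pombe was measured on 2 two-colour tiling arrays of 1 slide. On each array, Cy5-labelled DNA of a sap1-1 revertant was hybridised with Cy3-labelled DNA of the wild type, and both strains had the 972h background. Dyes were not swapped, and the effect of a dye on a probe cannot be told apart from copy number. The sample titles number the revertants 1 and 2, but the labels do not say whether these came from separate isolates or cultures, so the p-values measure only the spread between these arrays, and the sap1-1 strain before reversion was not analysed here. Over the genome, 41533 and 41543 of the 41551 probes were well above background in both channels.

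Tiling arrays commonly carry fewer probes in repeated DNA, since a probe that matches many places cannot report on any single one. In fission yeast the main dispersed repeats are Tf2 retrotransposons, mobile elements that copy themselves through RNA and carry a long terminal repeat (LTR) at each end, and the many LTRs that older elements left behind. Sap1 is an essential DNA-binding protein that pauses replication forks and is known to bind LTRs. Genes for cell surface glycoproteins, in which a short unit is repeated in tandem, are another source of repeated sequence. In array comparative genomic hybridisation, a probe that matches several copies reads the total DNA of all of them.

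The Tf2 copies are nearly alike along their whole length, as the following 60 bases show. They are the stretch with the most differences among the 9 copies of 4002 bp in the RefSeq assembly ASM294v3, and start at base 590 of each coding sequence. Capitals mark a base that differs from the most frequent base at that place among the 9 copies. The copies shown belong to a window with a low ratio (Tf2-1), one with a high ratio (Tf2-5), one near 0 (Tf2-9) and the copy with the most differences (Tf2-11).
Tf2-1, chrI:1466436-1466495, + strand: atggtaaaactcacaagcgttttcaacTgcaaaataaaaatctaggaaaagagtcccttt
Tf2-5, chrI:3999776-3999835, - strand: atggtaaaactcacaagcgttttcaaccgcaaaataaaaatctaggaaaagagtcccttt
Tf2-9, chrII:1816101-1816160, - strand: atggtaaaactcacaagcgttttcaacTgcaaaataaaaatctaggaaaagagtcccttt
Tf2-11, chrII:4415246-4415305, + strand: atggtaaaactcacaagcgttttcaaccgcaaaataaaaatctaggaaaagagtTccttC
Over the 4002 positions, 18 differed between any of the 9 copies, and 99.55% were the same in all of them. Of the 3943 stretches of 60 bases, 3093 held no difference, so a probe in most of the element cannot tell the copies apart.

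The highest window holds a different kind of repeat, a unit of 72 bases repeated in tandem within the gene SPBPJ4664.02, which the annotation calls a glycoprotein. The next 4 lines give consecutive units of that gene in ASM294v3, and capitals mark a base that differs from unit 4.
SPBPJ4664.02 unit 1, chrII:689681-689752, + strand: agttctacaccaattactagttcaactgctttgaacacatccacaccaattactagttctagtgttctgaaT
SPBPJ4664.02 unit 2, chrII:689753-689824, + strand: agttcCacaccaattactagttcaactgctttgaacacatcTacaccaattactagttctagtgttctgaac
SPBPJ4664.02 unit 3, chrII:689825-689896, + strand: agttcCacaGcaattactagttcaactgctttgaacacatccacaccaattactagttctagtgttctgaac
SPBPJ4664.02 unit 4, chrII:689897-689968, + strand: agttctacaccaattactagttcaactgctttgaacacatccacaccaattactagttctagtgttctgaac
Within this gene of 12171 bp, 77.0% of the bases equalled the base 1 unit further on. Of all its 60-base words, 62.8% occurred more than once in the genome, and every further occurrence lay within the gene itself.

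All probes of the 3 chromosomes lay on a grid with 1 position every 300 bases, so a missing probe can be placed. In the 15 windows, 132 grid positions had no probe, 280 had a plain probe, 69 had a probe whose name ends in the letter m, and 20 had one ending in f. The sources used here do not say what these letters mean. The gaps and the lettered probes lay together in runs rather than spread over the windows, and the longest run of missing positions was 10, in the window of Tf2-11.

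**Figure D1:**
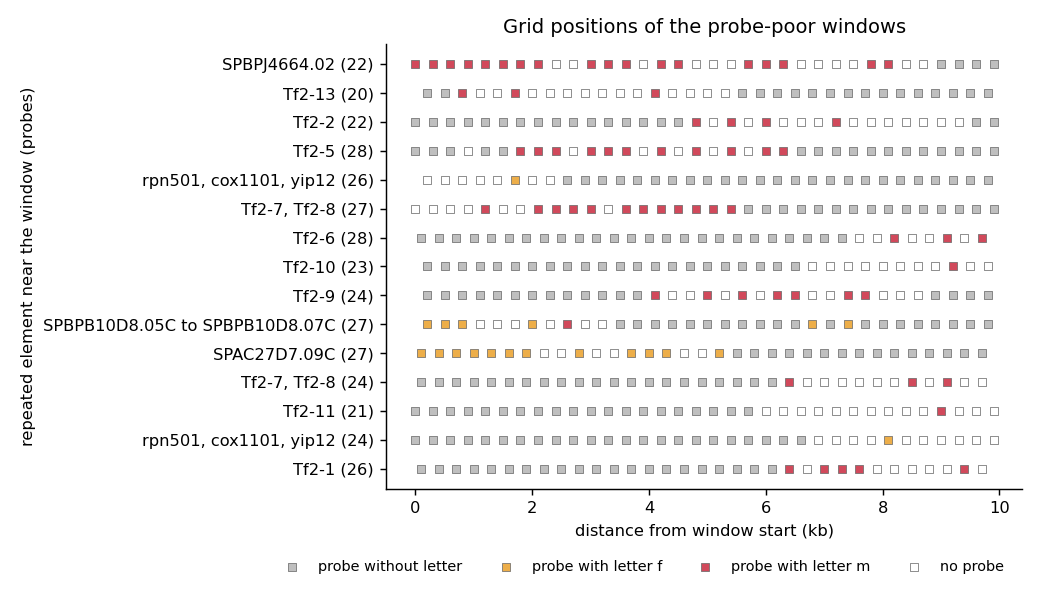
Grid positions of the 15 probe-poor windows, 1 row per window in order of mean ratio, by distance from the window start in kb. Filled squares are probes without a letter (grey), with letter f (orange) or with letter m (red), open squares are positions without a probe, and the number of probes of a window stands in brackets. Gaps and lettered probes form 1 block in most windows.

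The gaps followed the repeats of the assembly. Array positions are not those of ASM294v3, and were not converted. Instead, the pattern of gaps and lettered probes of each window and 20 kb on each side was slid by up to 6 kb either way. At each offset it was correlated with the assembly's repeated 60-base words. The best offset gave correlations of 0.81 to 1.00 over the grid positions of the window and its flanks. It was chosen as the best of many offsets and is therefore a description only. At that offset, 97.7% of the missing positions, 95.7% of the m probes and 95% of the f probes fell on repeated words, against 0% of the 280 plain probes. The m probes fell on words with a median of 13 genomic copies, and the f probes on words with a median of 2. The transporter window on chromosome II is the least certain, since its gaps gave an offset of -870 bases and its GC content gave 5460.

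Of the 15 windows, 10 had a Tf2 element within the window or 6 kb of it, against 1.30% of the comparison windows. An LTR lay within the same distance of 14 members, all but that of SPBPJ4664.02, and of 25.2% of the comparison windows. A protein-coding gene with at least 50% of its words repeated lay near all 15 members and near 5.30% of the comparison windows. Of the members, 2 had a tRNA gene (19.6% of the comparison windows), 1 a ribosomal RNA gene (6.43%) and 0 a gene of the wtf family of spore killers (3.39%). The assembly holds 13 Tf2 elements, of which Tf2-1, Tf2-2, Tf2-5, Tf2-6, Tf2-7, Tf2-8, Tf2-9, Tf2-10, Tf2-11 and Tf2-13 lay near members. Tf2-3 lay by windows of 29 probes and Tf2-12 by windows of 30 and 31, just outside the limit. Tf2-4 lay only by windows of 33 and 34 probes, so the array tiled that copy fully.

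The log2 ratios of the 15 windows, each the median of its probes, ran from -0.36 to 0.74 on array 1 and from -0.46 to 0.70 on array 2. Values above 0 mean more revertant than wild-type DNA, relative to the array's median. The members spread more widely than the comparison windows. The SD over windows was 0.28 and 0.31 on the arrays, against 0.14 on each for the comparison windows. The excess was smaller after loess within arrays, a scaling by brightness (0.19 and 0.18, against 0.14 and 0.13). It was also smaller with saturated probes left out (0.21 and 0.24, against 0.14 and 0.14). The middle of the members did not stand apart. The median member was at 0.06 and 0.01, the median comparison window at -0.02 and -0.02, and the difference was 0.06 ± 0.04 (SD, n = 2 arrays). The exact sign permutation test over the arrays gave p = 0.5 (two-sided), the smallest p that 2 arrays allow.

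**Figure D2:**
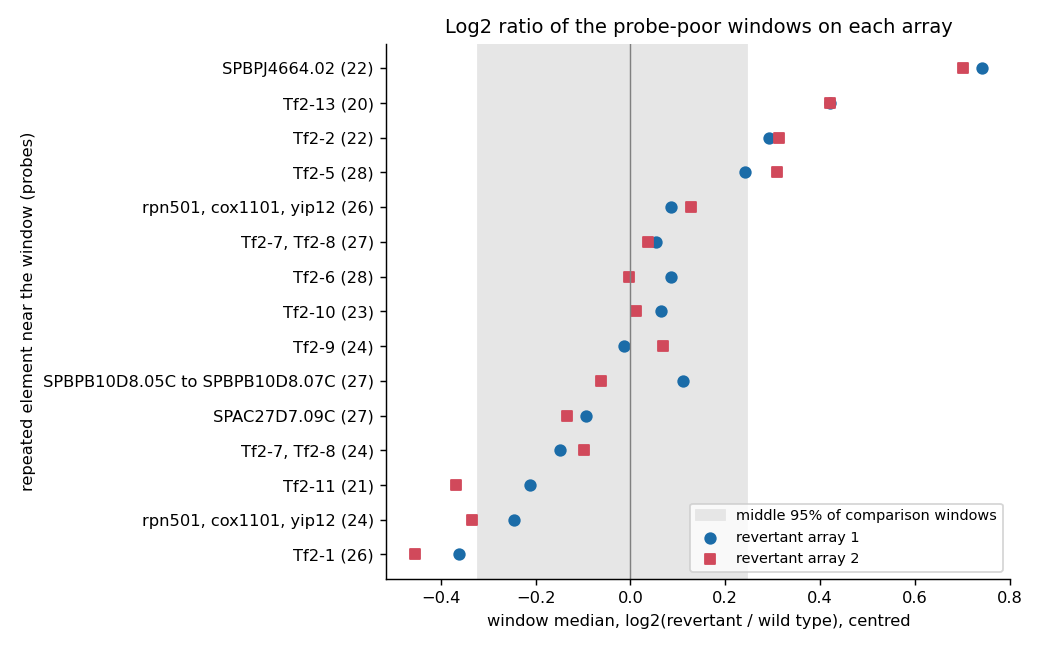
Median log2 ratio, revertant over wild type, of each probe-poor window on array 1 (blue circles) and array 2 (red squares), with the number of probes in brackets. The grey band spans the middle 95% of the 1150 comparison windows (the wider limits of both arrays). SPBPJ4664.02, Tf2-13 and Tf2-2 lie right of the band on both arrays, and Tf2-1 lies left of it on both.

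Over the 15 members, the arrays correlated at r = 0.97, and over the comparison windows at r = 0.87, where both arrays share their probes, slide and dye orientation. The difference between arrays had a median size of 0.05 in the members and 0.05 in the comparison windows, and was at most 0.17 in the members, at the transporter window. Single probes within a window spread with an SD of 0.65 in the members and 0.64 in the comparison windows, so that few probes make a median less precise.

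Counts of windows that differ from 0 must be read against a high background. Of the members, limma called 5 higher and 5 lower at an adjusted p of 0.05, where it called 46.3% of all 1254 windows with at least 5 probes (19.8% higher and 26.5% lower). With each window set against its nearest comparison windows, 7 members were higher and 4 lower, where limma called 54.3% of 1173 windows (28.2% higher and 26.1% lower). Past 0.25 in size on both arrays, 3 members were higher and 1 was lower. That fold was passed by 1.61% of the interior windows upwards and by 3.73% downwards. The 3 high members were those of SPBPJ4664.02, Tf2-13 and Tf2-2, and the low member was that of Tf2-1. The order of the text below is by kind of repeat, and p-values are limma's, adjusted over all windows.

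The window of SPBPJ4664.02 (array positions chrII:690001-700000, 22 probes) had the highest measured mean of the 1180 interior windows, a value that saturation makes an upper limit. Its log2 ratio was 0.74 on array 1 and 0.70 on array 2, a mean of 0.72 ± 0.03 (SD, n = 2) or 1.65-fold (limma adjusted p = 0.000155). The fully tiled windows on its sides were at 0.03 and 0.01 on the left and at -0.18 and -0.09 on the right, so the rise stayed within 1 window on both arrays. In this window 18 of the 22 probes carried the letter m, and on each array all 18 had a saturated wild-type signal and an unsaturated revertant signal. A saturated signal reads too low, so their medians of 0.88 and 0.77, and the value of the whole window, are upper limits of the ratio. The 4 plain probes, none of them saturated, had medians of 0.18 and 0.16, a mean of 0.17, which is below the windows of Tf2-13, Tf2-5 and Tf2-2 with saturated probes left out (0.42, 0.25 and 0.22). Of the 22 probes, 20 were above 0 on both arrays and 0 were below 0 on both. Loess within arrays removes the trend of the ratio with the mean signal of both channels, not with the wild-type signal alone. After loess the window was at 0.03 ± 0.07 (SD, n = 2; limma adjusted p = 0.44), so this scaling ended the call. Beside the repeat gene lies mfm3, which encodes a precursor of the M-factor mating pheromone.

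The Tf2 windows held the next highest values and the lowest one. The 10 Tf2 windows held 193 plain probes and 50 m probes. At the fitted offsets, 0% of the plain probes of the members fell on repeated words. The median of a Tf2 window is thus mostly that of the sequence beside the element, and does not give the copy number of the element. The window of Tf2-13 (chrIII:2320001-2330000, 20 probes, the fewest of any member) was at 0.42 on both arrays, the third highest interior window. This is 0.42 ± 0.00029 (SD, n = 2), or 1.34-fold (limma adjusted p = 0.000948). Its neighbours were at 0.12 and -0.0069 on the left and -0.09 and -0.19 on the right. None of its probes was saturated. Of its 20 probes, 15 were above 0 on both arrays, and the 17 plain probes, with medians of 0.47 and 0.49, were higher than the 3 lettered ones, with 0.37 and 0.35. After loess the window was at 0.23, below the limit of 0.25 on the mean but still called (limma adjusted p = 0.00022).

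The window of Tf2-2 (chrI:1560001-1570000, 22 probes) was at 0.29 and 0.31, a mean of 0.30 ± 0.02 (SD, n = 2; 1.23-fold; limma adjusted p = 0.0022). Its 4 lettered probes were at 1.02 and 0.99 and its 18 plain probes at 0.27 and 0.17. Of the lettered probes, 2 were saturated in the wild-type channel, so the lettered median is an upper limit. Singly, the 4 lettered probes ran from -0.98 to 1.70 on array 1, so their median hides a wide spread. The window was at 0.10 with the mean of the probes and at 0.08 in the authors' deposited table, and was called in both. A 5S ribosomal RNA gene lies beside this element. The window of Tf2-5 (chrI:3990001-4000000, 28 probes) was at 0.24 and 0.31, a mean of 0.28 ± 0.05 (SD, n = 2; limma adjusted p = 0.0038), and missed the limit of 0.25 on array 1 alone. Its 11 lettered probes were at 0.56 and 0.63 and its 17 plain probes at 0.11 and 0.23. Singly, the lettered probes ran from -0.87 to 1.56 on array 1. Near Tf2-5, with other genes between them, lies pfl2, of a family of flocculins, the surface proteins that let cells stick together. Both windows lay above their neighbours, by 0.47 ± 0.0077 for Tf2-2 and by 0.34 ± 0.04 for Tf2-5 (SD, n = 2 each).

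The window of Tf2-1 (chrI:1460001-1470000, 26 probes) was the lowest member and the eighth lowest of the interior windows. It was at -0.36 on array 1 and -0.46 on array 2, a mean of -0.41 ± 0.07 (SD, n = 2; limma adjusted p = 0.0016). Of its 26 probes, 18 were below 0 on both arrays and 5 above 0 on both. The low value came from the plain probes, 21 of them with medians of -0.51 and -0.60, while the 5 lettered probes were at 0.42 and 0.26. The plain probes lie in the part of the window before the repeat. At the fitted offset of -900 bases, the gene next to Tf2-1 on that side is brr2, for a helicase of the spliceosome's U5 particle. The comparison window on the left was itself low, at -0.26 and -0.20, and the nearest one on the right was at 0.08 and 0.17. The window directly to the right, of 30 probes, was at 0.10 and 0.13.

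**Figure D3:**
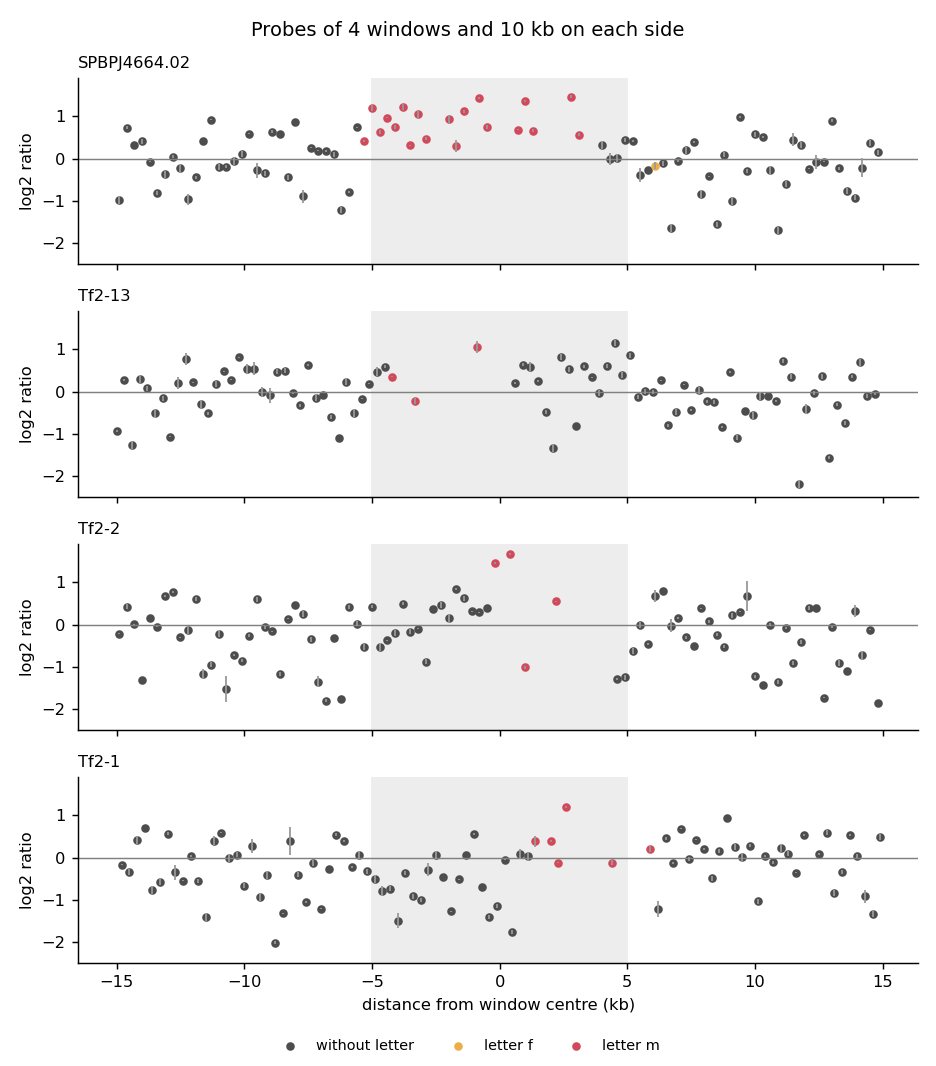
Log2 ratio of single probes in the windows of SPBPJ4664.02, Tf2-13, Tf2-2 and Tf2-1 and 10 kb on each side, by distance from the window centre in kb. Points are means of the 2 arrays, grey bars span both arrays, the shaded area is the window, and colours mark the letter of the probe. Red m points of SPBPJ4664.02 all lie above 0, and in the Tf2-1 window most dark points lie below 0.

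The window of Tf2-11 (chrII:4410001-4420000, 21 probes) was low too, at -0.21 and -0.37 (-0.29 ± 0.11, SD, n = 2; limma adjusted p = 0.0072). Its 20 plain probes were at -0.25 and -0.38 and its single lettered probe at 0.95 and 0.89. Tf2-11 is the copy that differs most from Tf2-1, with 16 mismatches, and 89.1% of its words are repeated elsewhere. Beside it lies pfl5, another gene of the flocculin family, with 44.9% of its words repeated. With the authors' deposited table, a running mean over 5 probes, the window was at -0.05 and not called (limma adjusted p = 0.073).

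Tf2-7 and Tf2-8 lie one after the other, and their probe gaps span 2 adjacent windows. The first (chrI:5180001-5190000, 24 probes) was at -0.15 and -0.10 (limma adjusted p = 0.028), and did not pass against its neighbours (limma adjusted p = 0.20) or in the authors' deposited table (-0.04; limma adjusted p = 0.095). The second (chrI:5190001-5200000, 27 probes) was at 0.05 and 0.04 (limma adjusted p = 0.24), and was higher than its neighbours by 0.11 ± 0.04 (SD, n = 2; limma adjusted p = 0.021). It was called higher with loess (0.10), in the authors' deposited table (0.08) and with the mean of the probes (0.06). The second window was a mixture, since its 15 plain probes were at -0.25 and -0.18 and its 12 lettered probes at 0.80 and 0.78. Singly, the lettered probes ran from -0.92 to 1.44 on array 1. With plain probes alone the second window was called lower, at -0.21 (limma adjusted p = 0.0012).

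The other 3 Tf2 windows lay near 0 and were not called on the median-centred ratios. Tf2-6 (chrI:4010001-4020000, 28 probes) was at 0.09 and -0.0033. Tf2-10 (chrII:1960001-1970000, 23 probes) was at 0.06 and 0.01, and Tf2-9 (chrII:1810001-1820000, 24 probes) at -0.01 and 0.07. The limma adjusted p of these windows was 0.37, 0.35 and 0.51. The Tf2-6 window was called higher with loess (0.19; limma adjusted p = 0.00049), in the authors' deposited table (0.24; limma adjusted p = 3.2e-05) and with the mean of the probes (0.05; limma adjusted p = 0.0074). The Tf2-9 window was called lower with loess (-0.11; limma adjusted p = 0.011) and with the mean of the probes (-0.07; limma adjusted p = 0.0015). Against the nearest comparison windows, the Tf2-10 window was higher by 0.19 ± 0.0044 (SD, n = 2; limma adjusted p = 0.000178). The left one was at -0.26 on both arrays and the right one at 0.02 and -0.10. The window directly to its right, which had 29 probes and was not used for this, was at -0.44 and -0.30.

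Probes with the letter m separated from the plain probes of the same windows. Over the 10 Tf2 windows, the 50 m probes had medians of 0.58 and 0.59 (0.59 ± 0.0047, SD, n = 2; 1.50-fold), and the 193 plain probes had -0.05 and -0.04. Single m probes spread widely, with quartiles of 0.18 and 0.98 on array 1. Of the m probes 80% were above 0 on both arrays, against 39.4% of the plain probes. Where a Tf2 window held saturated probes (those of Tf2-2, Tf2-5 and Tf2-9, and the second of Tf2-7 and Tf2-8), its lettered median is an upper limit. The m probes were the higher in 9 of the 10 windows, with Tf2-13 as the exception. Probe sequences were not at hand, but at the fitted offsets 95.7% of the m probes of all members fell on repeated words. The 50 m probes of the Tf2 windows thus likely share targets. They are not 50 separate measurements of copy number, and no test was made. Leaving out the 7 saturated probes gave 0.53 and 0.55. After loess the 50 m probes were much lower, at 0.23 and 0.12, and the 193 plain probes were at -0.12 and -0.05. The unsaturated m probes were then at 0.12, as the mean of both arrays.

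**Figure D4:**
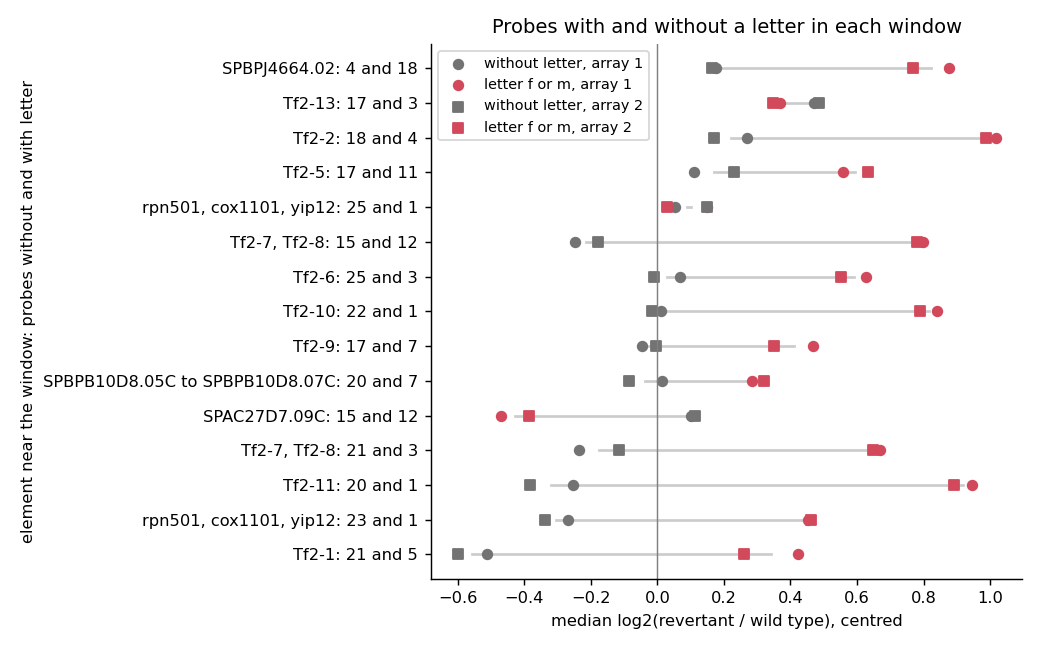
Median log2 ratio of the probes without a letter (grey) and with letter f or m (red) in each probe-poor window, on array 1 (circles) and array 2 (squares). Numbers on the left are the probes without and with a letter. Red lies right of grey in every Tf2 window except that of Tf2-13, and left of it in the window named after SPAC27D7.09C.

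Tf2 copies outside the members gave like values. Tf2-3, Tf2-4 and Tf2-12 differ from Tf2-1 at 2, 0 and 2 bases, so their m probes likely share targets with those of the members. The likeness is therefore no separate support. Near Tf2-3, Tf2-4 and Tf2-12, the m probes had means of the array medians of 0.74 (8 probes), 0.53 (16 probes) and 0.52 (10 probes). All 34 together had 0.60 on array 1 and 0.52 on array 2, and the 30 unsaturated ones had 0.48 and 0.45. In the comparison windows, the 151 m probes of any repeat had 0.49 and 0.44, and the 106 of them that were not saturated had 0.26 and 0.25. The f probes differed: the 20 in the members were at -0.15 and -0.13, and the 414 in the comparison windows at 0.02 and -0.03.

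The m probes were also the brightest. The median wild-type signal of the Tf2 m probes was 15.4 and 15.3 on the log2 scale, against 13.2 and 13.1 for the plain probes of these windows. The ratio changed with brightness, here shown for plain probes of the comparison windows as means of both arrays. It was -0.17 at a wild-type signal of 12 to 13, 0.09 at 13 to 14, 0.17 at 14 to 15 and 0.11 at 15 to 16. After loess, which was fitted on the mean signal of both channels, these classes were at 0.0073, -0.03, -0.06 and -0.22. A trend with the wild-type signal thus remained after loess. At a wild-type signal between 15 and 16, the 39 Tf2 m probes had 0.64 and 0.63, and the 2848 plain probes of the comparison windows had 0.06 and 0.16. After loess within arrays the same probes were at 0.22 and -0.22, as means of both arrays. At this wild-type signal the m probes lay above plain probes by 0.52 ± 0.07 (SD, n = 2) without loess and by 0.43 with it. Here 17.9% of the m probes and 3.09% of the plain probes were saturated. The wild-type signal that sets these classes is also the denominator of the ratio. The 8 m probes at a signal of 14 to 15 lay above by 0.31 ± 0.12 (SD, n = 2) and by 0.29 with loess. The 3 m probes at 13 to 14 lay below plain probes, at -0.28 against 0.09, and at -0.33 against -0.03 with loess. With saturated probes left out at a signal of 15 to 16, the 32 m probes were at 0.56 and the 2760 plain probes at 0.11. With loess these were at 0.14 and -0.21, all as means of both arrays. The part that saturation and probe sequence have in the difference between m and plain probes was not tested.

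**Figure D5:**
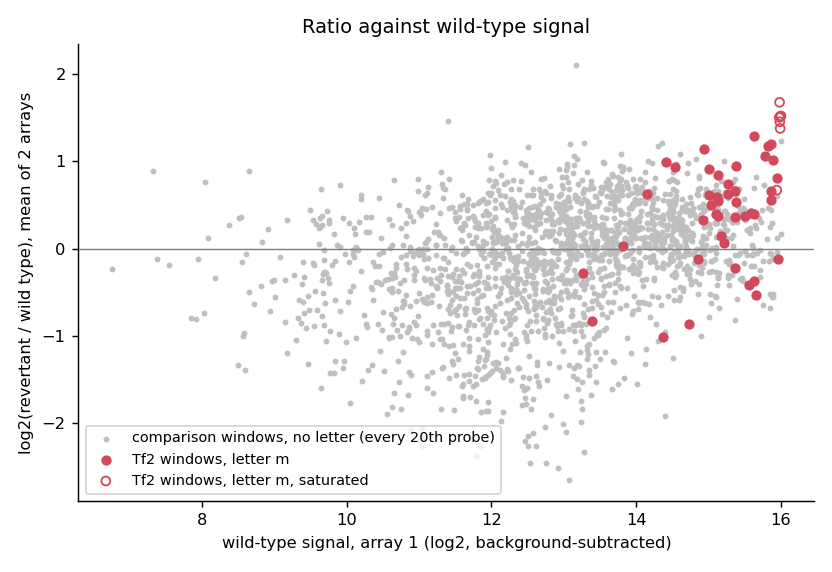
Log2 ratio, revertant over wild type (mean of 2 arrays), against the wild-type signal of array 1 on the log2 scale. Grey points are every 20th plain probe of the comparison windows, red points the 50 m probes of the Tf2 windows, open where saturated. Most red points lie at a signal of 15 to 16 and above the grey points there.

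The 4 remaining windows hold duplicated sequence. On chromosome I, a block with rpn501, a subunit of the 19S proteasome, cox1101, a fusion of a mitochondrial ribosomal and a cytochrome oxidase assembly protein, and yip12, of the SMN complex that assembles spliceosomal particles, is present a second time as rpn502, cox1102 and yip11. Of their 60-base words 91.5%, 97.3% and 100% recur in the partner gene. The first window of the block (chrI:1260001-1270000, 24 probes) was at -0.25 and -0.33 (-0.29 ± 0.06, SD, n = 2; limma adjusted p = 0.0040). The second (chrI:1270001-1280000, 26 probes) was at 0.09 and 0.13 (0.11 ± 0.03, SD, n = 2; limma adjusted p = 0.039). Each kept 1 lettered probe of the block, so both values are those of the unique sequence on its sides. At and beside the partner block, between array positions 4901101 and 4908301, the array carried 22 f probes, with medians of -0.06 and -0.09. This range was not matched to the borders of the block, so some of these probes may lie outside it. With loess the first window was at -0.12 and still called, and the second was no longer called with normexp (0.06; limma adjusted p = 0.31) or with the mean of its probes (0.02; limma adjusted p = 0.22).

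The window named here after the nearby gene SPAC27D7.09C (chrI:4520001-4530000, 27 probes) was at -0.09 and -0.13 (-0.11 ± 0.03, SD, n = 2; limma adjusted p = 0.032). This gene encodes a protein of the But2 family, and 69.2% of its words recur in a stretch at chrI:4526546-4527576 of ASM294v3. At the fitted offset of 4580 bases, the gene itself lies just outside the window and that stretch lies inside it. In this window the lettered probes were the lower: the 12 f probes were at -0.47 and -0.39, and the 15 plain probes at 0.10 and 0.11. The sign of the window turned with loess, to 0.04 (limma adjusted p = 0.19), and with plain probes alone, to 0.11 (limma adjusted p = 0.022).

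The last window (chrII:100001-110000, 27 probes) lies near SPBPB10D8.05C, SPBPB10D8.06C and SPBPB10D8.07C, annotated as transporters, which are tandem copies of each other and of SPBPB10D8.04C further left. The words of SPBPB10D8.05C and SPBPB10D8.06C are shared in full, at 100%. The window was at 0.11 on array 1 and -0.06 on array 2, so its sign differed between the arrays (limma adjusted p = 0.70). Its 7 lettered probes were at 0.28 and 0.32, and its 20 plain probes at 0.01 and -0.09.

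The probe limit did not mark a break in the values. The 5 members of 27 or 28 probes ran from -0.09 to 0.24 on array 1 and from -0.13 to 0.31 on array 2. The 9 interior windows of 29 or 30 probes ran from -0.44 to 0.26 and from -0.30 to 0.21. GC content, which the ratio follows weakly (r = -0.18 over 1150 comparison windows, at assembly coordinates), had a median of 34.5% in the members and 36.0% in the comparison windows. Among the members it was 37.3% at SPBPJ4664.02 and 37.0% at Tf2-1, the highest and the lowest window.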

How the data were processed

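Genomic DNA of 2 revertant arrays was analysed from the scanner files. Per the file headers, Agilent Feature Extraction 10.10.1.1 read the authors' scans, and the deposited processed signals are intensities, background-subtracted and scaled by a linear dye factor per channel, with no lowess. The deposited log10 ratio equalled log10 of red over green processed signal within 0.001 (0 exceptions). The authors' deposited table of log2 ratios equalled a running mean over 5 probes (100% of values within 0.001), with column medians of -0.0030 and -0.01. That match settled scale, direction and the lack of centring. The deposited flags are 0 or 1 per the file headers.

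The log2 ratio of the processed signals was centred on the median of each array (0.09 and 0.08 before centring). Probes with an outlier flag (10 and 3) were left out, and saturated probes were kept. Window medians, and their differences from the mean of the nearest comparison window on each side, were tested against 0 by limma 3.58.1 (R 4.3.3; an intercept in lmFit, then eBayes and Benjamini-Hochberg adjustment over all windows), after a test on simulated data. There, for window medians, it called 1.14% of 1054 unshifted windows when noise was independent between arrays. It called 53.9% of them when effects that a probe has on both arrays were kept. In the data it called 46.3% of windows, so a call alone does not show a copy change. A limma p here covers the spread between arrays, not such probe effects nor the spread of the wild type. Normexp used an offset of 50 and the median spot signals, since no mean signals were at hand. Python 3.11.15 with numpy 2.4.6, pandas 2.3.3 and matplotlib 3.10.9 did the rest. The 2 arrays limit the precision.

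For the array design, no genome build is named in the sources used here. Windows stand at array positions, genes and sequences at those of ASM294v3. The windows, gene lists and alternatives were chosen with earlier results of these data known. All 15 windows are named, with their Tf2 elements, LTRs, RNA genes and duplicated genes.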

Additional observations from a re-analysis of the deposited data

How the results depend on the processing

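Of the 15 windows, all kept their side of the limma threshold and their direction when saturated or dim probes were left out or outlier probes kept. The other settings moved the counts. Members called higher (5) became 8 with the authors' deposited table, where limma called 68.2% of all windows, 48.1% of these higher. With 5 to 24 probes they became 3 of the 8 members left, and the windows tested stayed the same. Members called lower (5) became 3 under each of these. Against neighbours, the higher members (7) became 11 with the mean of the probes, and the lower (4) became 2 with normexp. The shares of all windows called were not computed for the mean of the probes and normexp. Past 0.25 on both arrays, the 3 higher members became 1 with loess, with saturated probes left out, and with unlettered probes alone. Of the comparison windows, 0.87%, 1.13% and 1.39% were higher in these settings, against 1.22% in the main one. The 1 lower member became 2 with the mean of the probes or borders moved by 5 kb, 3 with unlettered probes alone, and 0 with 5 to 24 probes; on single arrays it was 1 to 3. Of the comparison windows, 3.65% were lower with the median of the probes, 13.9% with the mean of the probes, 4.79% with moved borders and 3.65% with unlettered probes. The members' median (0.04) was -0.030 with the mean of the probes and 0.087 with moved borders, and its difference from the comparison windows (0.06) was then 0.11. Single windows called in at least 1 of both settings turned sign as follows: the second Tf2-7 and Tf2-8 window to -0.21 with unlettered probes; Tf2-9 to -0.11 with loess and -0.073 with the mean; the transporter window to -0.056 with the mean; SPAC27D7.09C to 0.043 with loess and 0.11 with unlettered probes. Uncalled in both settings, Tf2-10 turned to -0.032 with the mean and -0.0029 with unlettered probes, Tf2-9 to -0.026 and the transporter window to -0.036 with unlettered probes. The causes were not tested. The share of all windows called rose from 46.3% to 61.5% with loess and 68.2% with the deposited table. Unlettered probes alone were chosen after seeing the data. Tf2-13, Tf2-2, Tf2-5, Tf2-1 and the rpn501 window were called in the same direction in all 8 settings that left the windows as they were. The share of all windows that were called in all 8 was not computed.

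With 1 array left there are no residual degrees of freedom and limma gives no test. No paired analysis was possible because the revertant is the only group and the wild type is the other channel of each array.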
